A study of Mus musculus with 10 samples.

Results

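The genes described here encode the proteasome, its assembly factors and its activators, read in mouse embryonic stem cells (ESCs) whose *Max* expression could be switched off. They were every gene with a symbol of the *Psma*, *Psmb*, *Psmc*, *Psmd*, *Psme*, *Psmf* or *Psmg* families, and each was read from its brightest probe set. This gave 47 of the 18193 genes of the array, with 100 of its 45037 probe sets. They were 14 subunits of the core particle (7 alpha and 7 beta), 17 subunits of the regulatory particle (6 ATPases and 11 others), 7 assembly chaperones, 4 immunoproteasome or PA28 genes, 3 other activators or inhibitors, and 2 tissue-specific core subunits. *Psme2*, the second PA28 subunit, was not among them, as its probe set also named another gene.

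In all cells, male and of strain 129SV, both endogenous copies of *Max* were disrupted and a *Max* cDNA was expressed from the ROSA26 locus by the tetracycline-off system, so that doxycycline (Dox) switched *Max* off and the untreated cells lacked the endogenous gene too. The 6 Dox conditions in LIF and serum were treated for 1, 2, 3, 4, 6 or 8 d, and 2 arrays of untreated cells accompanied them. The labels place the first untreated array with 1 to 4 d (first set) and the second with 6 and 8 d (second set). Under 2i, a medium with inhibitors of MEK and GSK3, there was 1 array of Dox-treated cells (6 d) and 1 of untreated cells (6 d of 2i alone). Each Dox time was thus 1 array, and nothing states that the untreated arrays came from separate cultures. The p-values below therefore reflect spread between arrays, possibly of technical origin, and not known replicate cultures. That spread also holds departures from a straight line over days and, for Dox against untreated, differences between the Dox times. In such bulk RNA, fewer cells of a type and less RNA per cell cannot be told apart.

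The proteasome degrades proteins tagged with ubiquitin. Its core is a barrel of stacked alpha and beta rings with the proteolytic sites inside, and the regulatory particle on its ends binds, unfolds and feeds in substrates. Immune cells and interferon exchange the catalytic beta subunits for others, and male germ cells exchange an alpha subunit. MAX, the gene product removed here, is the partner through which MYC proteins bind the E box, CACGTG.

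The stretches of promoter that hold an E box show where such a site lies among these genes. Promoters (250 bases before to 50 after the start site, RefSeq, GRCm38.p6) were matched for 39 of the 47 genes, and not for *Psmb1*, *Psmb2*, *Psmb7*, *Psmc3*, *Psmd3*, *Psmd7*, *Psmg2* and *Psma8*. CACGTG, which reads the same on both strands, occurred in 4 of the 39, or 10.3%, against 10.2% of the 14452 genes of the array with a promoter. The 60 bases around each site follow 5′ to 3′ on the gene's strand, with the E box in capitals.
Psme3, chr11:101316142-101316201, plus strand: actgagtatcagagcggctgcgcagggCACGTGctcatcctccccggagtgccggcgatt
Psmd9, chr5:123228112-123228171, plus strand: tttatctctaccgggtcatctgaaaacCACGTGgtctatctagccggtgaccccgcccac
Psmb10, chr8:105938476-105938535, minus strand: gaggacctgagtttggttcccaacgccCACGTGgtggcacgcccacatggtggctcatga
Psma4, chr9:54950692-54950751, plus strand: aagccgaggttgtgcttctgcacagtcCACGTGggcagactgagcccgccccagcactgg

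The E boxes began at positions -44, -51, -116 and -140 from the start sites of *Psme3*, *Psmd9*, *Psmb10* and *Psma4*. Such a match describes these letters and does not show binding. The core of the antioxidant response element, TGACNNNGC on either strand, through which NRF1 drives proteasome genes, was found in 6 of the 39 promoters (15.4%), against 16.2% of the genes of the array. The CCAAT box, on either strand, occurred in 14 (35.9%), against 42.0%. *Psmb5*, which encodes the chymotrypsin-like site, had a response element core 47 bases before its start, shown here in capitals as an example.
Psmb5, chr14:54618010-54618069, minus strand: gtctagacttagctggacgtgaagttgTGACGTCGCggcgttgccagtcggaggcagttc

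All values below are log2 expression values after RMA normalization, and they compare 1 gene across arrays, not gene with gene. The *Max* probe set was dim and gave no check of the Dox labels. It read 5.57 in the first untreated array and 5.53, 5.60, 5.07 and 5.20 after 1, 2, 3 and 4 d, then 5.74, 6.20 and 6.19 in the second untreated array and after 6 and 8 d, and 5.54 with and 5.74 without Dox under 2i. The sources do not say whether the probe set lies within the transgenic cDNA. All 7 ESC markers examined (*Pou5f1*, *Sox2*, *Nanog*, *Zfp42*, *Esrrb*, *Klf4* and *Fgf4*) reached 6, and the log2 of their summed level ranged over 14.5 to 15.2 in serum with Dox and 14.3 to 14.5 without. Of 5 primitive endoderm markers 2 reached 6, and their summed level was 6.98 to 8.15 with Dox and 7.13 to 7.49 without. Of 6 fibroblast markers 2 reached 6, with 7.47 to 8.31 in Dox arrays and 7.80 to 7.89 in untreated arrays. The highest value of both lists was that of the 8 d array. The 5 haematopoietic markers summed to 9.27 to 10.5 with Dox and 9.85 to 10.1 without, mostly from *Laptm5*. The 3′ over 5′ signal of beta-actin, a sign of RNA quality, was 0.52 to 0.56 on the log2 scale in the 1 to 4 d arrays and 0.41 in their untreated array, and 1.46 and 1.22 at 6 and 8 d, against 0.88 in the second untreated array. For *Gapdh* the same signal was 0.086 and 0.046 at 6 and 8 d, against 0.12 in the second untreated array. It was -0.089 to -0.0068 in the 1 to 4 d arrays, against -0.026 in their untreated array. The part of RNA quality in the results below was not tested.

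With Dox in serum, most proteasome genes had no called change. Per day of Dox over the 8 serum arrays, *Psmd6* rose and *Psme3*, *Psmg3*, *Psmd7* and *Psmf1* fell (limma with the array set as a covariate, Benjamini-Hochberg over all probe sets, threshold 0.05). The 1 of 47 genes called higher compares with 5.75% of all genes called higher, and the 4 of 47 called lower with 5.33% of all genes. At an unadjusted p under 0.05, 4 had a positive and 10 a negative slope, beside 2406 and 2698 of all 18193 genes. When the 6 Dox arrays of any time were set against the 2 untreated arrays within their sets, *Psme3*, *Psmg3* and *Psmf1* were lower and 0 genes were higher, beside 1.52% of all genes called lower and 2.11% called higher. Without adjustment, 3 genes were higher and 13 lower there at p under 0.05, beside 2109 and 2733 of all 18193 genes. The calls for the trend rested on the second untreated array, without which limma called 0 of the 47 genes and 0 of all probe sets (before adjustment, 1 had a positive and 5 a negative slope at p under 0.05). Without the 8 d array, limma called 0 genes higher and 7 lower. Of the calls between Dox and untreated arrays, that of *Psme3* was kept without the first untreated, 1 d or 2 d array, that of *Psmg3* without the 1 d or 2 d array and that of *Psmf1* without the 1 d array, and each was lost without any of the others.

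The 31 constitutive subunits of the core and regulatory particle were among the brightest genes of the array. Averaged over the 10 arrays, 30 of the 31 had a log2 value of at least 10, and their median of 11.4 lay above that of 97.9% of all genes. Their median fold over the untreated array of the first set was 0.869 at 1 d, 0.855 at 2 d, 0.883 at 3 d and 0.818 at 4 d. At 4 d, 26 of the 31 were below the untreated value. In the second set it was 0.969 (6 d) and 1.11 (8 d), where 22 of the 31 were above the second untreated array. Over all genes the median fold was 0.946, 0.933, 0.943 and 0.936 at 1, 2, 3 and 4 d, and 0.954 and 0.974 at 6 and 8 d, with 7613 of 18193 genes above untreated at 4 d and 8516 at 8 d. The subunits thus read slightly low in the first set and not in the second. That turn cannot be told apart from the difference between the untreated arrays, since the second over the first gave a median fold of 0.805 for the same 31 genes, against 0.953 for all genes. With the first untreated array in both sets, the median was 0.755 at 6 d and 0.877 at 8 d. The plot of folds by time shows how far single genes lay from these medians.

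**Figure D1:**
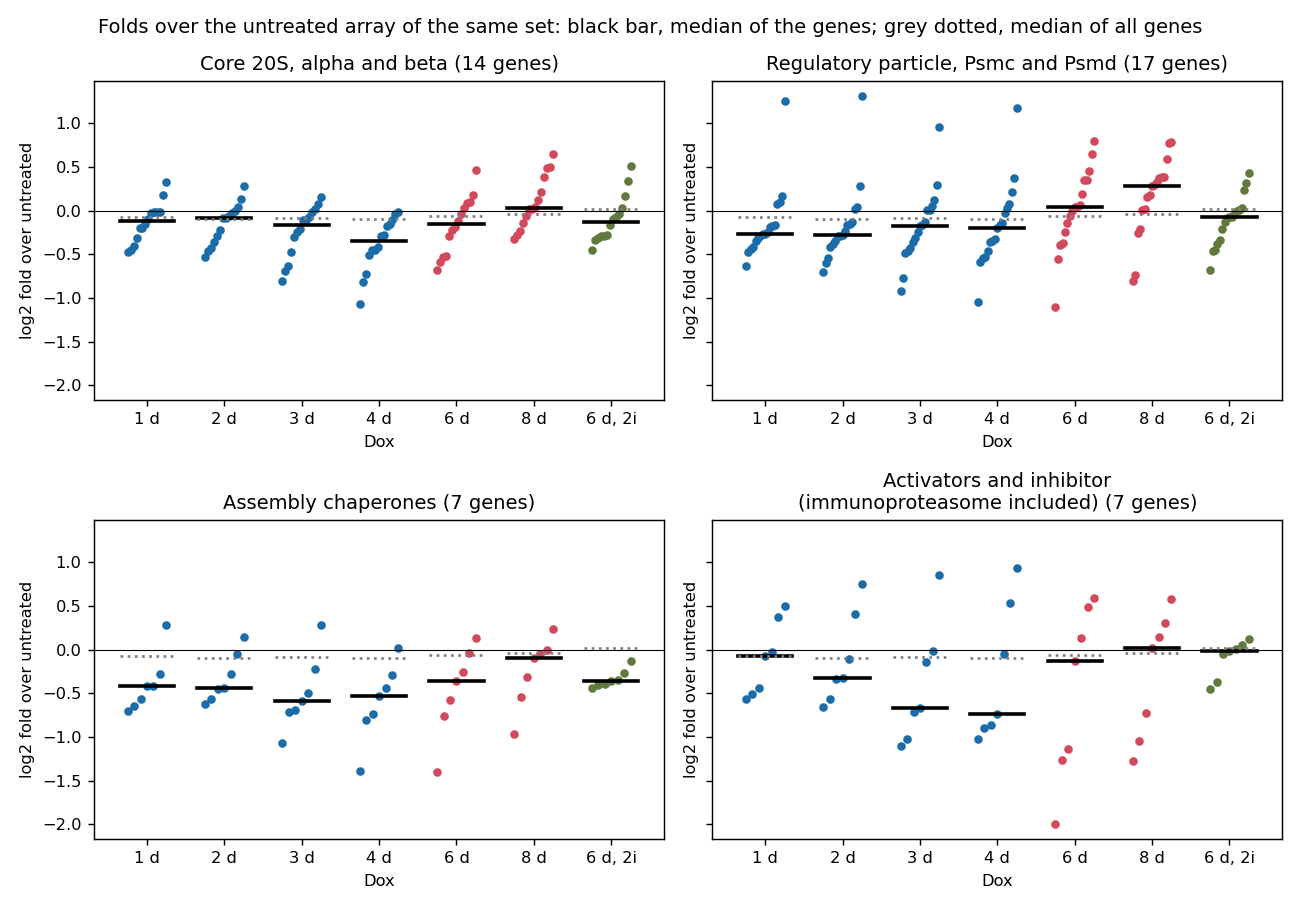
Log2 fold of each gene (points) over the untreated array of the same set, by days of Dox in LIF and serum (blue, first set; red, second set) and under 2i (green), in 4 classes of proteasome genes. Black bars are the medians of the class and grey dotted bars the median of all genes. Of the 7 assembly chaperones, 6 lay below untreated at every time in LIF and serum.

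Within the core, the alpha subunits, which form the gate, moved little. All 7 were below untreated at 4 d, with a median fold of 0.902, and 4 of 7 were above it at 8 d, with a median of 1.01. *Psma7*, encoding the alpha 4 subunit, had the steepest negative slope among them. It read 11.81 untreated and 11.40, 11.34, 11.00 and 10.74 after 1, 2, 3 and 4 d in the first set, and 11.33 untreated, 10.82 at 6 d and 11.11 at 8 d in the second. The value went down at each time of the first set to a fold of 0.476 at 4 d, but the slope over all 8 arrays did not pass (-0.089 per day, SE 0.039, adjusted p = 0.20 in limma). In the first set alone the slope was -0.25 per day and passed (adjusted p = 0.036 in limma). *Psma3* read 11.88 untreated, then 12.06, 12.01, 11.76 and 11.77 in the first set, and 12.15, 11.62 and 11.82 in the second. *Psma4*, described here for its E box, read 11.75 untreated, 12.07, 12.03, 11.91 and 11.73, and 11.88, 11.59 and 11.89, with a slope of -0.012 per day (adjusted p = 0.85 in limma). *Psma1* stayed between 11.33 and 11.52 on all 8 serum arrays. *Psma6* lay between 12.01 and 12.31, highest at 8 d.

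The beta subunits carry the proteolytic sites, and all 7 were below untreated at each of 1, 2, 3 and 4 d. Their median fold was 0.868, 0.815, 0.809 and 0.731 at these times. In the second set it was 1.06 at 6 d and 1.31 at 8 d, with 5 of 7 genes above untreated at 8 d, although 5 of the 7 were lower in the second than in the first untreated array (median fold 0.801). *Psmb5* read 11.62 untreated, 11.31, 11.27, 10.93 and 10.81 at 1 to 4 d, and 11.72 untreated, 11.13 at 6 d and 11.44 at 8 d. Its slope was -0.084 per day (SE 0.034, adjusted p = 0.17 in limma). *Psmb7*, the trypsin-like subunit, read 12.35 untreated and 12.26, 12.26, 12.05 and 11.84 in the first set, and 11.31, 10.63 and 11.25 in the second, whose untreated array was 0.486 times the first. Without the 8 d array, both *Psmb5* and *Psmb7* were called lower (adjusted p = 0.038 and 0.042 in limma). *Psmb2* had 10.63 untreated, 10.16, 10.34, 10.15 and 10.18 in the first set, and 10.88, 10.98 and 11.53 in the second. *Psmb4* had 12.52 untreated, 12.36, 12.29, 12.44 and 12.34, and 12.20, 12.67 and 12.68. Both were below untreated at each time of the first set and above it in the second. In limma 0 of the 7 beta subunits passed either test, and 1 was lower in each at an unadjusted p under 0.05.

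The 6 ATPases form the ring that unfolds substrates, and in limma 0 of the 6 passed either test (before adjustment, 1 was higher and 1 lower in each at p under 0.05). *Psmc3* had the largest slope, 0.093 per day (SE 0.030, adjusted p = 0.089 in limma). It read 11.87 untreated and 11.56, 11.58, 11.88 and 11.94 at 1 to 4 d, then 11.23 untreated, 12.03 at 6 d and 12.02 at 8 d. Its folds of 1.74 and 1.73 in the second set were set against the lowest of its 8 serum values. *Psmc6* differed between the untreated arrays more than with time. It read 9.51 untreated, 10.76, 10.82, 10.46 and 10.68 in the first set, and 10.74, 11.09 and 11.02 in the second. The first untreated array stood alone, so that the fold was 2.26 at 4 d and 1.21 at 8 d, and the Dox arrays averaged 0.78 above untreated (SE 0.20, adjusted p = 0.066 in limma). *Psmc4* read 11.40 untreated, 11.06, 11.06, 11.24 and 11.24, and 11.78, 11.38 and 11.04, below untreated at all 6 times. *Psmc1*, with the second smallest slope, was 10.86 untreated, 10.60, 10.48, 10.55 and 10.50, and 10.12, 10.18 and 10.42.

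Among the 11 other regulatory subunits, *Psmd7* fell and *Psmd6* rose. PSMD7 is the partner of the deubiquitinase PSMD14 in the lid, and PSMD6 is another lid subunit. *Psmd7* read 11.26 untreated and 10.82, 10.66, 10.34 and 10.22 after 1, 2, 3 and 4 d, then 10.62 untreated, 9.52 at 6 d and 9.82 at 8 d. Within each set every Dox array was below its untreated array, and only the 1 d and 2 d values of the first set exceeded the untreated value of the second. The slope was -0.15 per day (SE 0.036, adjusted p = 0.031), while Dox against untreated gave -0.84 (SE 0.19, adjusted p = 0.051), both in limma. A second *Psmd7* probe set that reached 6 had a slope of -0.098 (adjusted p = 0.054 in limma). The trend call was lost without the 1 d, 3 d, 4 d, 6 d or second untreated array.

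*Psmd6* had 11.12 untreated, 11.29, 11.39, 11.41 and 11.49 in the first set, and 11.35 untreated, 11.99 at 6 d and 12.12 at 8 d in the second. It was higher at each later time within both sets, by a slope of 0.096 per day (SE 0.024, adjusted p = 0.034 in limma), and reached a fold of 1.71 at 8 d. The Dox arrays of any time averaged 0.47 above untreated, which did not pass (SE 0.15, adjusted p = 0.10 in limma), and this difference was 0.28 without the second untreated array. Its other probe set had a slope of 0.032 (adjusted p = 0.61 in limma), and of the 8 arrays left out in turn, the call held only without the first untreated array. *Psmd1*, a scaffold of the base, read 10.96 untreated, 11.03, 10.99, 11.07 and 11.16, and 11.18, 11.64 and 11.78, with an adjusted p of 0.11 for its slope in limma. *Psmd4*, a ubiquitin receptor, read 12.01 untreated, 11.53, 11.59, 11.58 and 11.47, and 11.24, 10.87 and 10.98. Every *Psmd4* value with Dox was below the untreated value of its set, with a fold of 0.688 at 4 d and 0.839 at 8 d.

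**Figure D2:**
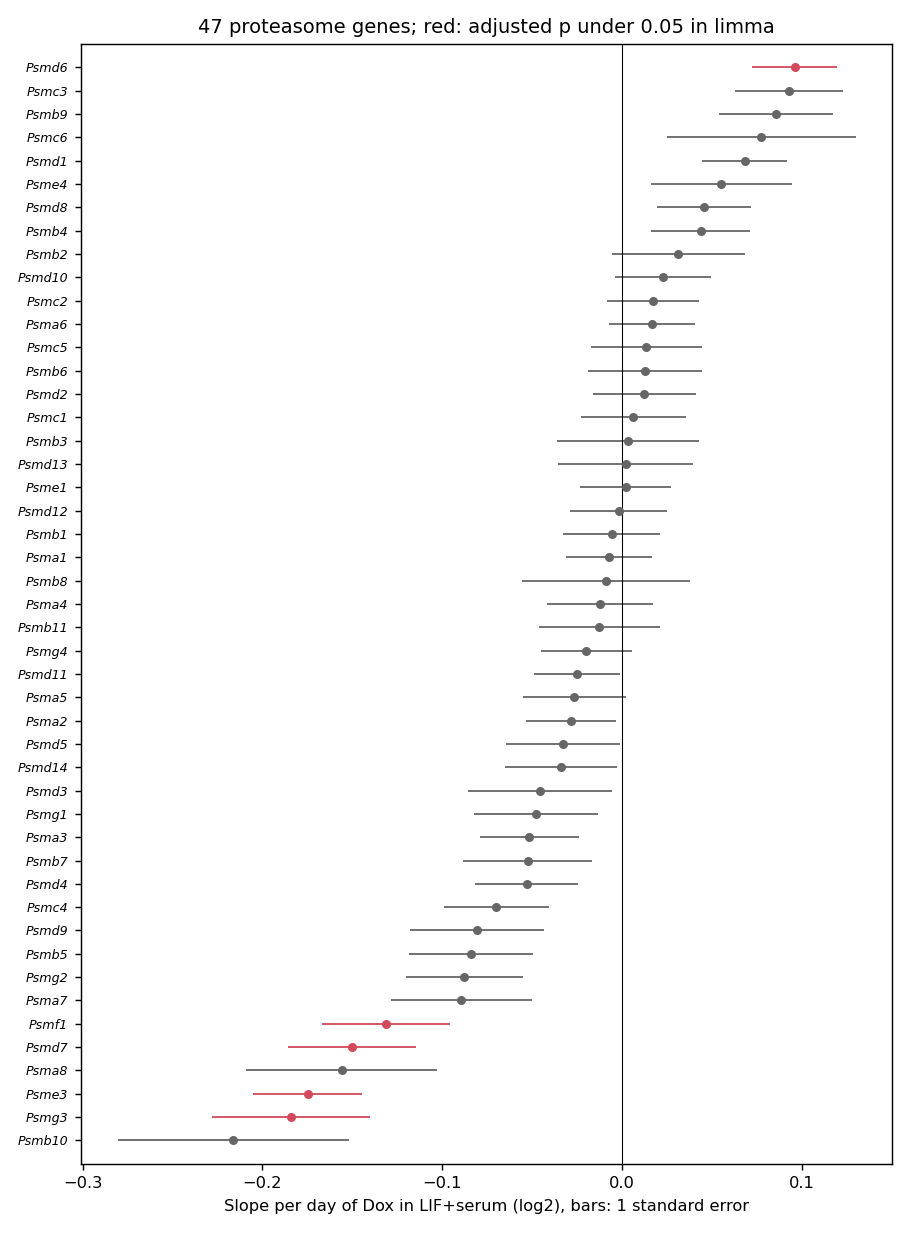
Slope per day of Dox (log2, x axis) of the 47 genes over the 8 LIF and serum arrays, with bars of 1 standard error. Red marks the 5 genes with an adjusted p under 0.05 in limma, 1 positive and 4 negative. *Psmb10* had the most negative slope, with a wide error.

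The assembly chaperones, which put the rings and the base together and leave the finished particle, mostly read low with Dox. At each of the 6 times, 6 of the 7 genes were below untreated, with *Psmd10* above, and the median fold was 0.748, 0.736, 0.664 and 0.692 at 1, 2, 3 and 4 d and 0.778 and 0.937 at 6 and 8 d. The second over the first untreated array gave a median fold of 0.942 for these genes, nearer to 1 than for the constitutive subunits. In the trend 1 of the 7 was called, lower, beside 5.33% of all genes. In the comparison of Dox with untreated arrays 1 was called lower, beside 1.52% of all genes. The called gene in both was *Psmg3*, which encodes a chaperone of the alpha ring. It read 9.64 untreated and 8.94, 9.08, 8.58 and 8.25 at 1, 2, 3 and 4 d, and 9.56 untreated, 8.16 at 6 d and 8.59 at 8 d. The untreated arrays differed by 0.942-fold, and the folds with Dox were 0.381 at 4 d and 0.380 at 6 d. The slope was -0.18 per day (SE 0.044, adjusted p = 0.032) and the difference between Dox and untreated arrays was -1.04 (SE 0.23, adjusted p = 0.049), in limma. The trend call was lost without the 3 d, 4 d, 6 d or second untreated array. A dimmer probe set of the gene had a slope of -0.082 (adjusted p = 0.20 in limma).

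*Psmg2*, whose product pairs with PSMG1 in the same process, read 10.11 untreated, 9.69, 10.06, 9.42 and 9.58, and 10.62, 10.04 and 10.08, with an adjusted p of 0.13 for its slope in limma. The partner of PSMG3, *Psmg4*, read 9.31 untreated, 9.02, 9.03, 9.08 and 9.01, and 9.56, 9.52 and 9.47. These values were low from 1 d on in the first set and nearly level in the second. *Psmd10* stayed between 8.26 and 8.60. *Psmd9*, a chaperone of the base named here after its values were seen, for its E box and because its groups did not overlap, read 8.56 untreated, 7.92, 7.94, 7.97 and 7.76, and 8.16, 7.40 and 7.85. All 6 Dox arrays were below both untreated arrays, by 0.61 on average (SE 0.16), which did not pass (adjusted p = 0.068 in limma). The share of all genes with such a separation is not given here. In the other *Psmd9* probe set that reached 6 the groups overlapped, with 6.05 at 3 d against 5.87 in the second untreated array. Dox against untreated gave -0.23 there (adjusted p = 0.50 in limma).

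Of the 3 remaining regulators, *Psme3* and *Psmf1* fell. PSME3 (PA28 gamma) is an activator of the core in the nucleus that works without ubiquitin, and PSMF1 (PI31) was described as an inhibitor of the core in vitro. *Psme3*, whose promoter had, of the 4, the E box nearest to the start site, read 9.25 untreated and 8.68, 8.92, 8.59 and 8.35 at 1, 2, 3 and 4 d, then 8.70 untreated, 7.44 at 6 d and 7.42 at 8 d. Each Dox value was below the untreated value of its set, and the 2 d value was above the second untreated array. At 6 and 8 d the folds were 0.418 and 0.414. The slope was -0.17 per day (SE 0.030, adjusted p = 0.0095) and Dox against untreated gave -0.91 (SE 0.20, adjusted p = 0.047), in limma. A second probe set of the gene gave nearly the same slope (-0.17, SE 0.032, adjusted p = 0.012 in limma), and a dim probe set gave -0.019. The trend call was kept under 14 of 16 alternatives and lost in the first set alone (adjusted p = 0.12) and without the second untreated array (adjusted p = 0.32), both in limma.

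*Psmf1* read 9.10 untreated, 8.59, 8.53, 8.38 and 8.23 in the first set, and 8.26 untreated, 7.12 at 6 d and 7.54 at 8 d in the second. It was below untreated at every time, with a fold of 0.550 at 4 d and 0.605 at 8 d, and its slope was -0.13 per day (SE 0.036, adjusted p = 0.049). Dox against untreated gave -0.79 (SE 0.17, adjusted p = 0.047), in limma. The call belonged to 1 probe set. The other *Psmf1* probe sets with a mean above 6 had slopes of -0.023 and -0.010. A dimmer probe set had a positive slope of 0.072 (adjusted p = 0.22 in limma). The mean of all its probe sets was not called (adjusted p = 0.67 in limma). The trend call was also lost without each array except the 8 d array. *Psme4* (PA200), an activator with a known part in sperm formation in mice, read above untreated at all 6 times in the probe set used. It did not pass either test. It had 10.23 untreated, 10.73, 10.98, 11.08 and 11.17, and 10.50 untreated, 10.63 at 6 d and 10.52 at 8 d. The fold was 1.91 at 4 d and 1.01 at 8 d, and the slope was 0.055 per day (SE 0.039, adjusted p = 0.44 in limma). Its other probe sets with a mean above 6 were also above untreated at 1 to 4 d. In the second set they had folds of 0.941 and 1.06 at 6 d and 0.795 and 0.916 at 8 d.

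**Figure D3:**
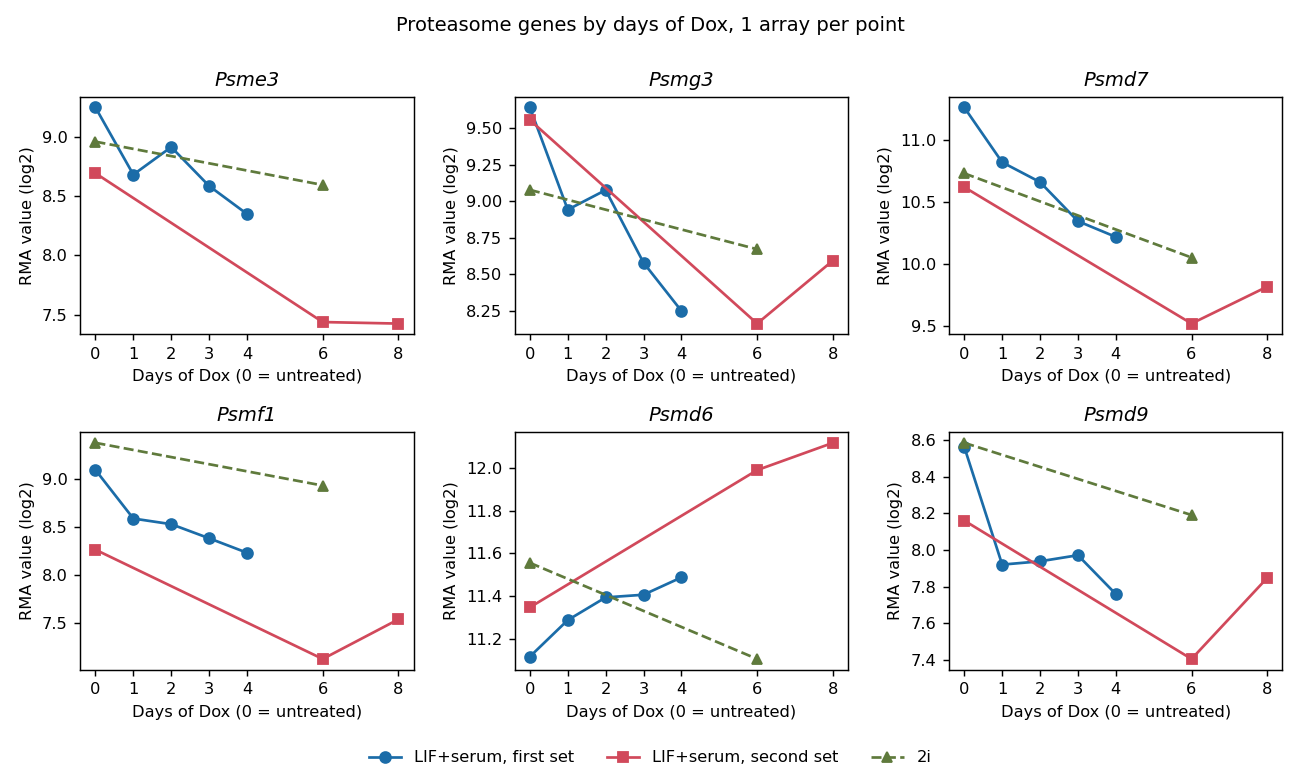
RMA values (log2) of the 5 called genes and of *Psmd9* by days of Dox, 1 array per point, in the first (blue) and second (red) set in LIF and serum and under 2i (green, dashed). The value axes differ and do not start at 0. *Psmd6* was higher at 6 d than untreated in serum and lower under 2i.

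The immunoproteasome genes did not move as a unit. *Psmb8*, *Psmb9* and *Psmb10* encode the subunits that replace PSMB5, PSMB6 and PSMB7, and *Psme1* encodes the alpha subunit of PA28. *Psmb8* was dim throughout, with 5.27 untreated, 4.83, 4.94, 4.24 and 4.53 in the first set, and 4.35 untreated, 4.84 and 4.66 in the second. The values never reached 6, and the untreated arrays spanned nearly the whole range. *Psmb9* read 5.92 untreated, 5.84, 6.32, 5.91 and 6.45, and 6.56 untreated, 7.14 at 6 d and 7.13 at 8 d, a fold of 1.49 at 8 d (slope 0.086, SE 0.032, adjusted p = 0.13 in limma). *Psme1* differed by set and not by Dox, with 9.09 untreated, 9.07, 8.98, 8.95 and 9.04 in the first set and 9.63, 9.51 and 9.78 in the second.

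*Psmb10*, also with an E box, had the most negative slope of the 47 genes and did not pass. It read 7.70 untreated, 8.08, 7.04, 6.60 and 6.68 at 1 to 4 d, and 8.01 untreated, 6.01 at 6 d and 6.97 at 8 d. The 1 d value was the highest of all, and the folds were 0.493 at 4 d and 0.25 at 6 d. The slope was -0.22 per day (SE 0.064, adjusted p = 0.067 in limma). Without the 8 d array it was -0.34 (adjusted p = 0.0050 in limma), and with log2(day + 1) in place of days *Psmb10* was called lower (adjusted p = 0.029 in limma). *Psmb7*, whose product it replaces, had a log2 fold of -0.69 at 6 d against the -2.0 of *Psmb10*. At the same time *Psmb8* had 0.48 and *Psmb5*, its counterpart, -0.59, and *Psmb9* had 0.59 and *Psmb6*, its counterpart, 0.17. These are differences within each gene, with no test at a single time.

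Genes of interferon signalling and class I presentation were mostly not called. Of 7 such genes measured, 1 was called higher in the trend, beside 5.75% of all genes. The other 6, among them *Irf1*, *Nlrc5*, *Tap1* and *Tap2*, did not pass. The called gene was *Jak2*, a kinase of the interferon gamma receptor. It read 5.07 untreated, 6.03, 5.71, 6.13 and 6.95 in the first set, and 5.51 untreated, 7.48 at 6 d and 7.58 at 8 d in the second. Its slope was 0.30 per day (SE 0.043, adjusted p = 0.0050 in limma). *Irf1*, which drives immunoproteasome genes, had a fold of 1.02 at 4 d and 0.990 at 8 d.

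The tissue-specific core subunits were *Psma8*, which replaces PSMA7 in male germ cells, and *Psmb11*, of the thymic cortex. *Psma8* was present in these ESCs before Dox and went up and then down. It read 7.80 untreated and 8.31, 8.56, 8.48 and 8.08 after 1, 2, 3 and 4 d, and 8.62 untreated, 7.29 at 6 d and 6.85 at 8 d. The folds were 1.69 at 2 d and 0.293 at 8 d. All 4 Dox values of the first set were above its untreated array and both of the second set below theirs, and the slope did not pass (-0.16, SE 0.053, adjusted p = 0.10 in limma). The second untreated array was 1.77 times the first, so the sign of the change in *Psma8* at 1 to 4 d depends on which untreated array is used. *Psma7* in the same arrays had a fold of 0.724 at 2 d and 0.854 at 8 d. *Psmb11* stayed between 3.31 and 4.31 in serum and never reached 6.

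**Figure D4:**
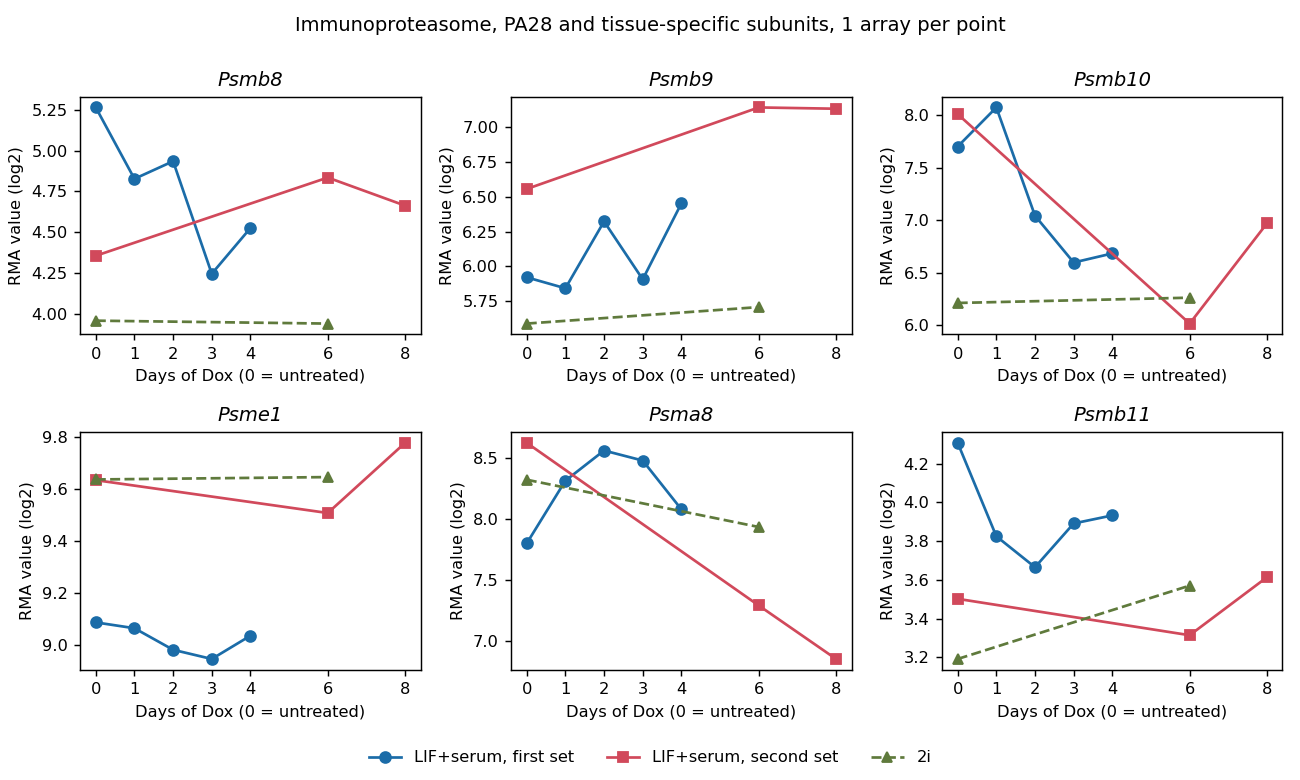
RMA values (log2) of the immunoproteasome, PA28 and tissue-specific genes by days of Dox, 1 array per point, in both LIF and serum sets (blue, red) and under 2i (green, dashed). The value axes differ and do not start at 0. *Psmb10* was 6.01 at 6 d against 8.01 untreated in serum, and 6.26 against 6.21 under 2i.

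Under 2i the 6 d array with Dox differed little from the untreated array for most genes, with no test possible on 1 array each. The 31 constitutive subunits had a median fold of 0.945, with 22 of 31 below untreated, where all genes had 1.01. The assembly chaperones had 0.782, and all 7 were below untreated. *Psme3* read 8.60 with Dox and 8.96 without, *Psmg3* 8.67 and 9.08, *Psmd7* 10.05 and 10.73, and *Psmf1* 8.93 and 9.38. All 4 were below untreated, as in serum, at folds of 0.776, 0.754, 0.625 and 0.734, closer to 1 than the serum folds of 0.418, 0.380, 0.467 and 0.454 at 6 d. *Psmd6* read 11.10 with Dox and 11.56 without under 2i, a fold of 0.731, against 1.56 in serum. *Psmc6* read 9.78 with Dox and 10.16 without, a fold of 0.765, against 1.28. *Psmb10* had 6.26 with Dox and 6.21 without, a fold of 1.04, where that of serum was 0.25. *Psma8* had 7.93 and 8.32, a fold of 0.765. *Psmb4* was above untreated in both media, at 1.42 under 2i and 1.38 in serum.

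**Figure D5:**
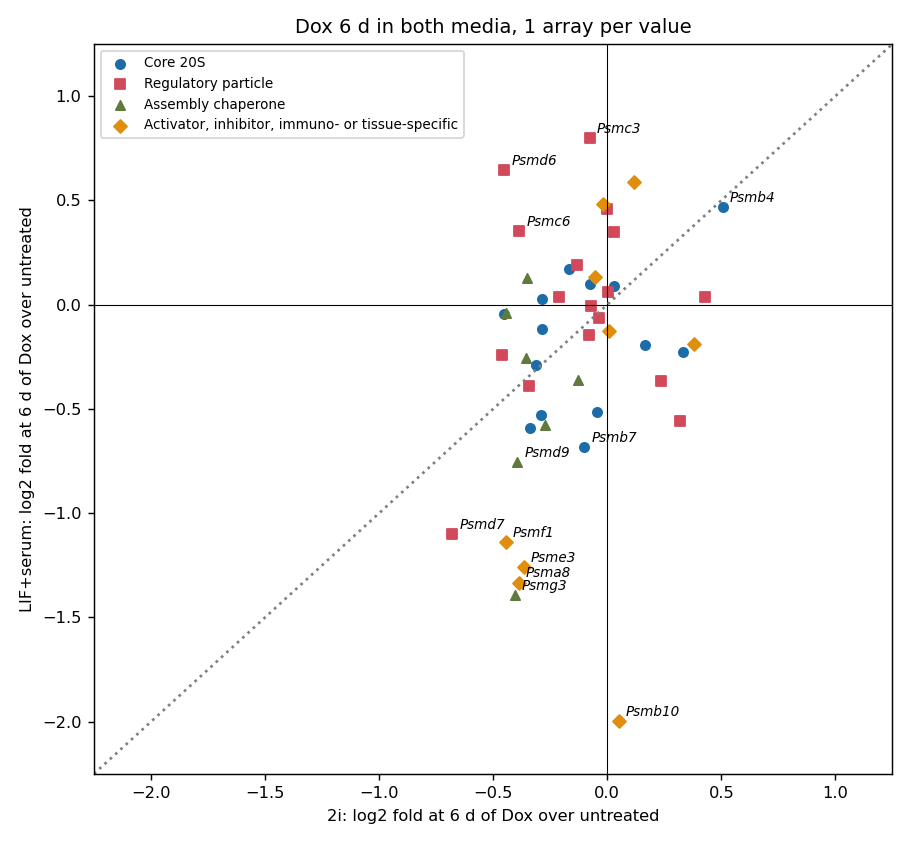
Log2 fold at 6 d of Dox over the untreated array in LIF and serum (y axis) against that under 2i (x axis) for the 47 genes, 1 array per value, with equal values on the dotted line. *Psmb10* lay at -2.0 in serum and 0.050 under 2i.

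The genes of the immunoproteasome subunits read low in the untreated 2i array. Of these, *Psmb8* and *Psmb9* were below 6 there. The 2i arrays formed a set of their own, so medium and array set cannot be told apart. *Psmb8* had 3.96, *Psmb9* 5.59 and *Psmb10* 6.21 in untreated 2i cells, below both untreated serum arrays for each gene. *Psme1* did not share this, with 9.64 under 2i against 9.09 and 9.63 in serum. The median fold of the 4 genes was 0.566 over the first and 0.623 over the second untreated serum array, where all genes had 0.909 and 0.940. It is not stated whether the arrays of both media were normalized together, and the medians of the 2i arrays (5.17 with and 5.14 without Dox) were lower than those of the serum arrays (5.27 to 5.34).

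Other genes that serve the proteasome gave few calls. Of 12 associated factors measured, which include the ubiquitin shuttles *Rad23b* and *Ubqln1*, the deubiquitinases *Usp14* and *Uchl5* and the core chaperone *Pomp*, 0 were called in the trend or between Dox and untreated arrays (limma), and 2 had an unadjusted p under 0.05 in the trend, both with a negative slope. *Usp14* had folds of 0.621 at 4 d and 0.701 at 8 d. NRF1 raises proteasome transcription when proteolysis is limiting. Of 7 genes listed for its pathway, with *Nfe2l2*, the gene of NRF2, among them, 1 was called higher in the trend, beside 5.75% of all genes. This was *Ngly1*, which removes the sugars from NRF1 so that it can act. It read 7.20 untreated, 7.45, 7.36, 7.73 and 7.95, and 7.04 untreated, 8.72 at 6 d and 8.46 at 8 d, a slope of 0.20 per day (SE 0.034, adjusted p = 0.0097 in limma). *Nfe2l1*, the gene of NRF1, had folds of 1.13 at 4 d and 1.25 at 8 d and did not pass (adjusted p = 0.27 in limma). Of the genes of ubiquitin and its activation only *Uba6*, which activates ubiquitin, and *Uba3*, which activates the related NEDD8, could be read. Both did not pass, although *Uba6* had a fold of 3.88 at 4 d and 1.5 at 8 d. Across the lists of marker genes, *Klf4* and *Nanog* were called higher in the trend, and 0 endoderm, fibroblast or haematopoietic markers passed in limma, with 1 endoderm marker lower before adjustment.

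The constitutive subunits varied together only loosely over the 8 serum arrays. The median correlation between pairs of the 31 genes was 0.21, against 0.027 for the 1425 genes with a mean of at least 10, a set chosen after values were seen. The points share the 8 arrays and the 2 sets, and this value is a description. Of the 53 other probe sets of these genes, those that reached 6 belonged to 20 genes, and in 17 of the 20 all of them had a slope of the same sign as the probe set used.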

How the data were processed

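Total RNA from 10 samples was hybridised to Affymetrix mouse whole-genome expression arrays, 1 sample per array. The authors deposited log2 expression values made by RMA (R, affy; versions not stated), which corrects background, forces arrays normalized together to share a distribution and summarises the probes, so a shift common to most genes would be removed and low values are compressed. It is not stated which arrays shared a normalization. The 64 control probe sets were left out, and symbols came from the platform annotation (34945 probe sets with 1 symbol, 932 with several, 9160 with none). Of the deposited columns, 0 were unused. Here the values were fitted with limma 3.58.1 (R 4.3.3), lmFit and eBayes, on the 8 LIF and serum arrays with array set as a covariate, once by days of Dox and once as Dox against untreated, with 5 residual degrees of freedom and adjustment over 45037 probe sets. Single times and 2i had 1 array each and no test. The steps were checked on simulated data. Members and gene lists were chosen with earlier results of these data known. Named with values per array were every immunoproteasome, PA28 and tissue-specific gene, every called gene and, in each other subgroup, the 2 largest and 2 smallest slopes. No pair of arrays shared over 0.22% identical values. The number of arrays limits the precision.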

Additional observations from a re-analysis of the deposited data

Results flagged for a closer look

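At 6 d of Dox, 2 proteasome genes and 5 genes of the related lists lay on opposite sides of their untreated array in LIF and serum and under 2i, by at least 1.25-fold in each. With 1 array per value, these differences were not tested. Among the proteasome genes, *Psmd6* had a log2 fold of 0.64 in serum and -0.45 under 2i, a difference of 1.10. *Psmc6* had 0.35 and -0.39, a difference of 0.74. Among the NRF1 pathway genes, *Ngly1* had 1.68 in serum and -1.32 under 2i, a difference of 2.99. *Nfe2l1* had 0.41 and -0.59, a difference of 0.99. Among the associated factors, *Ecpas* had 0.59 and -0.51, a difference of 1.10. The core chaperone *Pomp* had -0.46 and 0.67, a difference of -1.13. The shuttle *Ubqln2* had -0.33 and 0.57, a difference of -0.90.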

How the results depend on the processing

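The trend called 1 proteasome gene higher and 4 lower. Higher calls were 2 without the array set term and 0 with all 10 arrays, in the first set alone and with the mean of a gene's probe sets, and 0 to 2 with each array left out. Lower calls were 2 with all 10 arrays and 2 with the mean of probe sets, and 0 to 7 with each array left out. Dox against untreated called 0 higher and 3 lower. Higher calls were 1 after a further quantile normalization (*Psmc6*) and 0 to 1 with each array left out. Lower calls were 0 without the set term, 0 with all 10 arrays, 0 in the first set alone and 1 with the mean of probe sets, and 0 to 5 with each array left out. Other counts, including log2(day + 1) for day, stayed within 1.5 times. With the other untreated array of LIF and serum, the median log2 fold of the 31 constitutive subunits was 0.19, 0.18, 0.11 and 0.015 at 1, 2, 3 and 4 d and -0.41 and -0.19 at 6 and 8 d, so its sign depended on that array at 1, 2, 3, 4 and 8 d. No slope of a called gene changed sign. Further genes were called in the trend without the first untreated array (*Psmc3*, *Psma8*) or without the set term (*Psmd1*, *Psma8*), and between Dox and untreated arrays without the 1 d array (*Psmd7*, *Psmb10*), the first untreated array (*Psma8*) or the second (*Psmc6*). The array set covariate compared arrays within their sets, and no further pairing was made.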
